A study of Rattus norvegicus with 71 samples.

Results

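Esm1 and Apln are genes of the endothelium, the cell layer that lines blood vessels, and were described here in whole lung of newborn rats. Both members were found by their gene symbols in the probe annotation of an Illumina rat bead array, which held 1 probe for each (ILMN_1360134 for Esm1 and ILMN_1351069 for Apln), so the description covers 2 of the 13337 genes named on the array. The tissue came from pups exposed in utero to ovalbumin, an egg protein used as an allergen, or to saline. Within each exposure, 3 inbred strains (Lewis, Fisher and Brown Norway) were sampled on postnatal days 1, 7 and 14 (PN1, PN7 and PN14). This gave 18 groups of 4 arrays, except 3 arrays for Fisher PN7 saline, and 71 arrays on 6 slides. The labels name no litter, animal or sex and do not say whether lungs were pooled, so errors and p-values measure only the spread between these arrays. How the dams were given ovalbumin is not described in the sources used here.

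Endothelial cells sprout behind leading tip cells, which answer vascular endothelial growth factor (VEGF) while Notch signalling holds back their neighbours. Esm1 encodes endocan, a proteoglycan secreted by endothelium that marks tip cells in the mouse retina. Apln encodes apelin, the peptide ligand of the receptor Aplnr; it also marks tip cells in mouse, and in mouse lung it marks the Car4-high capillary cells called aerocytes, whereas general capillary cells carry the receptor.

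Esm1 lay at chr2:46609253-46617991 and Apln at chrX:132058739-132091518 in RefSeq's GRCr8 annotation. Their promoter windows in RefSeq's table, from 250 bases before to 50 bases after a transcript start, are shown so that the 2 genes can be compared. RefSeq's table held both windows, chr2:46609003-46609302 (plus strand) and chrX:132091197-132091496 (minus strand). The Esm1 window is built on the gene's own start. The Apln window is built on a start at base 132091246, which lies inside the gene as given above (start at 132091518 on the minus strand), so the whole window lies within the annotated gene. They read as follows, with motif matches in capitals.
Esm1: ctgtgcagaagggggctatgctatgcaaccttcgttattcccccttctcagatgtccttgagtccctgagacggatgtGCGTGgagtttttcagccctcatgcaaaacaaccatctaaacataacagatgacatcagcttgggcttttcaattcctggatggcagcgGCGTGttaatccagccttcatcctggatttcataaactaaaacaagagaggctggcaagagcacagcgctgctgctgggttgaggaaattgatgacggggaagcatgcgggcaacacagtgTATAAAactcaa
Apln: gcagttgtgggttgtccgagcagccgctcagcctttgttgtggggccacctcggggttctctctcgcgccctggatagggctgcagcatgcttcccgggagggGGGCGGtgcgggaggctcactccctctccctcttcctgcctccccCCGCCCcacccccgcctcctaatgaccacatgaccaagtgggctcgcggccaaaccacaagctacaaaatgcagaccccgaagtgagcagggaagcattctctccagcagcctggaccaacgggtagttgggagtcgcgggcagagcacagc
The letters searched were TATAAA on the gene's own strand, and on both strands ACGTG and GCGTG (cores of the hypoxia response element), GGGCGG (GC box) and TGTTCT (glucocorticoid response half-site); no matches overlapped. Esm1 held TATAAA, beginning at base 39 after the start, and GCGTG at 2 places before the start, on the plus strand. Apln held GGGCGG once on each strand, both before the start on which its window is built. Of 33469 rat promoters of the same length, 8.8% held TATAAA, 19.3% ACGTG, 29.7% GCGTG, 33.1% GGGCGG and 20.7% TGTTCT. The Apln window had the higher share of G and C bases, 65% against 48.7% for Esm1. A match describes letters and no binding was measured.

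Levels are log2 signals after background correction and quantile normalization, so 1 unit is a doubling. Apln was detected (detection p under 0.01) on all 71 arrays and ran between 8.33 and 11.86. Esm1 was detected on 68 of 71 arrays and ran between 4.96 and 10.57. The 3 arrays without a detected Esm1 signal were c and d of Lewis PN7 saline and d of Brown Norway PN7 saline. Arrays of 1 group differed by a standard deviation (SD) of 0.61 for Esm1 and 0.33 for Apln, pooled over groups. The standard error over beads within an array was smaller, with a median of 4.01% of the signal for Esm1 and 2.71% for Apln. Levels of the 2 probes are not compared with each other, since probes differ in brightness.

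The whole lung markers were present throughout: all 10 lung epithelial genes and 16 or 17 of 17 pan-endothelial genes were detected on every array. The 7 measured liver genes had a summed level (linear signal) of 47700 on Fisher PN1 saline array a and 26900 on Lewis PN7 saline array d, against 1280 to 9290 on the 67 arrays other than 4 that earlier results of these data had put in doubt. The other doubted arrays, Lewis PN1 ovalbumin a and Fisher PN7 saline c, had 3670 and 7180. The root mean square deviation of the doubted arrays from their group means was 0.338 to 0.371 on the log2 scale, within the 0.141 to 0.438 of the other 67. Values without these arrays are given where they differ most.

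The 2 genes were chosen by their levels on these arrays, and the comparisons behind that choice were not recorded. All differences between groups in Esm1 and Apln are therefore descriptions, given as estimates with a standard error (SE) and no p-value. For other genes, p-values are adjusted over the 14019 probes tested, and a gene is called where the adjusted p is under 0.05.

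The largest exposure differences of both genes among the 9 pairs of strain and day were those of Brown Norway PN1 and Lewis PN7, and in each of these pairs Esm1 and Apln differed in opposite directions. In Brown Norway PN1 lungs Esm1 was lower and Apln higher after ovalbumin. In Lewis PN7 lungs Esm1 was higher and Apln lower. These comparisons share no arrays.

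At Brown Norway PN1, Esm1 was 7.91, 7.48, 9.29 and 7.43 in ovalbumin lungs, against 9.83, 10.19, 10.57 and 10.44 in saline lungs. Every ovalbumin array lay below every saline array, array c (9.29) being nearest. The difference was -2.23 ± 0.43 (log2 ± SE, n = 4 each), a 4.70-fold lower level. Apln, the apelin gene, was 11.325, 11.3165, 10.9985 and 11.4426 in ovalbumin lungs, against 8.3281, 9.9544, 8.6252 and 8.9984 in saline lungs. The groups again did not overlap, and saline array b (9.95) stood above the other saline arrays. The difference was 2.29 ± 0.23, a 4.90-fold higher level. Of all probes tested in this comparison, 31.5% had groups that did not overlap.

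At Lewis PN7, Esm1 was 9.71, 9.66, 9.93 and 9.89 in ovalbumin lungs, against 6.68, 7.02, 4.96 and 5.78 in saline lungs. The ovalbumin arrays were close together and far above all saline arrays, of which c and d were not detected. The difference was 3.68 ± 0.43, a 12.9-fold higher level measured against a group near background. Apln was 9.32, 9.76, 8.50 and 9.33 in ovalbumin lungs, against 11.52, 11.40, 11.45 and 11.66 in saline lungs. No array overlapped, and the difference was -2.28 ± 0.23, a 4.85-fold lower level. Groups did not overlap for 29.8% of the probes tested here.

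Both pairs kept their directions where arrays of one slide were compared. On slide 3, Brown Norway PN1 Esm1 differed by -2.32 and Apln by 2.18 (2 arrays per exposure). In Lewis PN7, Esm1 differed by 4.53 on slide 2 and by 2.83 on slide 4, and Apln by -2.64 and -1.92 (2 arrays per exposure on each). In the authors' deposited values, which are not background corrected, the Lewis PN7 Esm1 difference was smaller, 2.52. Without the liver-high saline array d it was 3.57 for Esm1 and -2.23 for Apln.

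**Figure D1:**
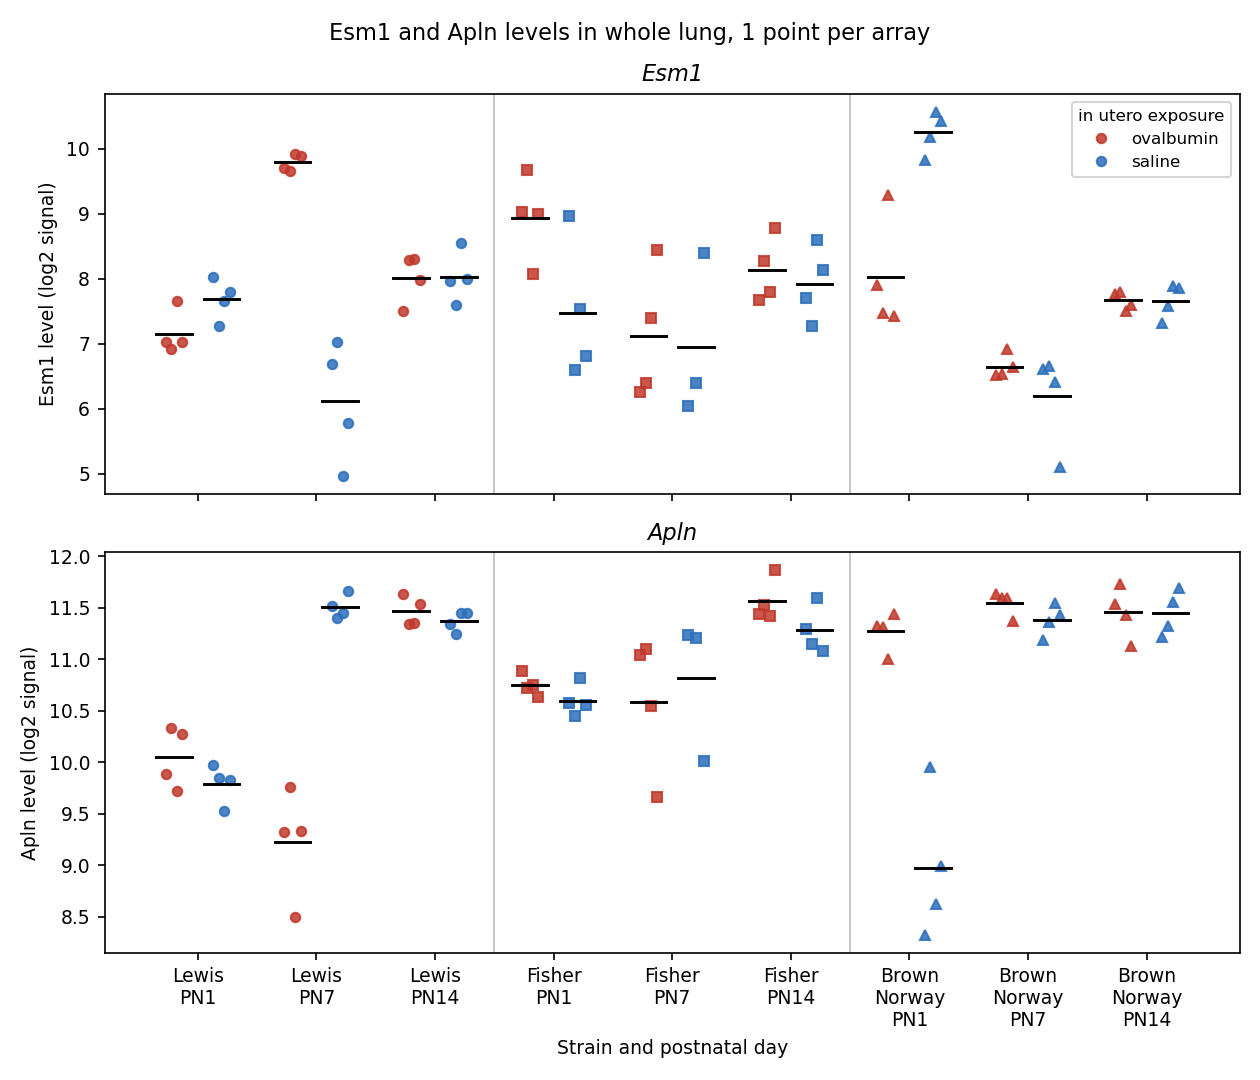
Levels of Esm1 (top) and Apln (bottom) on each of 71 arrays, on a log2 signal axis, by strain and postnatal day, with ovalbumin left of saline; black bars are group means. The Lewis PN7 ovalbumin arrays of Esm1 lie between 9.66 and 9.93 and those of Brown Norway PN1 saline between 9.83 and 10.57, and the same 2 groups have the lowest Apln means.

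The other 4 pairs at PN1 and PN7 showed smaller differences. Fisher PN1 Esm1 was 9.03, 9.67, 8.08 and 8.99 in ovalbumin lungs, against 8.97, 6.59, 7.54 and 6.81 in saline lungs. One saline array, a, reached the ovalbumin range, and the difference was 1.46 ± 0.43. That array was the one with the highest liver sum, and without it the Esm1 difference was 1.96. Apln of the same lungs differed by only 0.15 ± 0.23. Lewis PN1 Esm1 differed by -0.53 ± 0.43 and Apln by 0.26 ± 0.23. Brown Norway PN7 Esm1 differed by 0.45 ± 0.43 and Apln by 0.16 ± 0.23. These saline arrays all lay on slide 4 and the ovalbumin arrays on slides 1 and 2, so slide and exposure cannot be told apart within this pair. With slide as a term fitted over all groups, the Apln difference was 0.89 and that of Esm1 0.11, and 793 probes were called in this pair, against 21 without it.

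Fisher PN7 was the pair whose arrays split inside each exposure. Esm1 was 6.25, 6.40, 7.39 and 8.44 in ovalbumin lungs, against 6.05, 6.39 and 8.39 in saline lungs. Apln was 11.04, 11.10, 10.55 and 9.66 in ovalbumin lungs, against 11.24, 11.20 and 10.01 in saline lungs. In both exposures, arrays a and b had the lower Esm1 and the higher Apln, and they lay on slide 4, whereas ovalbumin c and d lay on slide 5 and saline c on slide 2. Slide and sample cannot be told apart in this split. The exposure difference was 0.18 ± 0.46 for Esm1 and -0.23 ± 0.25 for Apln (n = 4 and 3). Without saline array c these became 0.90 and -0.63.

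At PN14 the exposure differences of both genes were within 1 SE of 0 on average over strains. Averaged over strains, Esm1 was 7.94 in ovalbumin lungs and 7.87 in saline lungs (12 arrays each), a difference of 0.07 ± 0.25 with a 95% interval of -0.43 to 0.56. Apln was 11.49 in ovalbumin lungs and 11.36 in saline lungs, a difference of 0.13 ± 0.13 with an interval of -0.14 to 0.40. In single strains the PN14 difference of Esm1 lay between -0.01 and 0.20 and that of Apln between 0.01 and 0.28, each with an SE of 0.43 for Esm1 and 0.23 for Apln. No PN14 ovalbumin array shared a slide with a PN14 saline array, so slide and exposure cannot be told apart at this age.

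**Figure D2:**
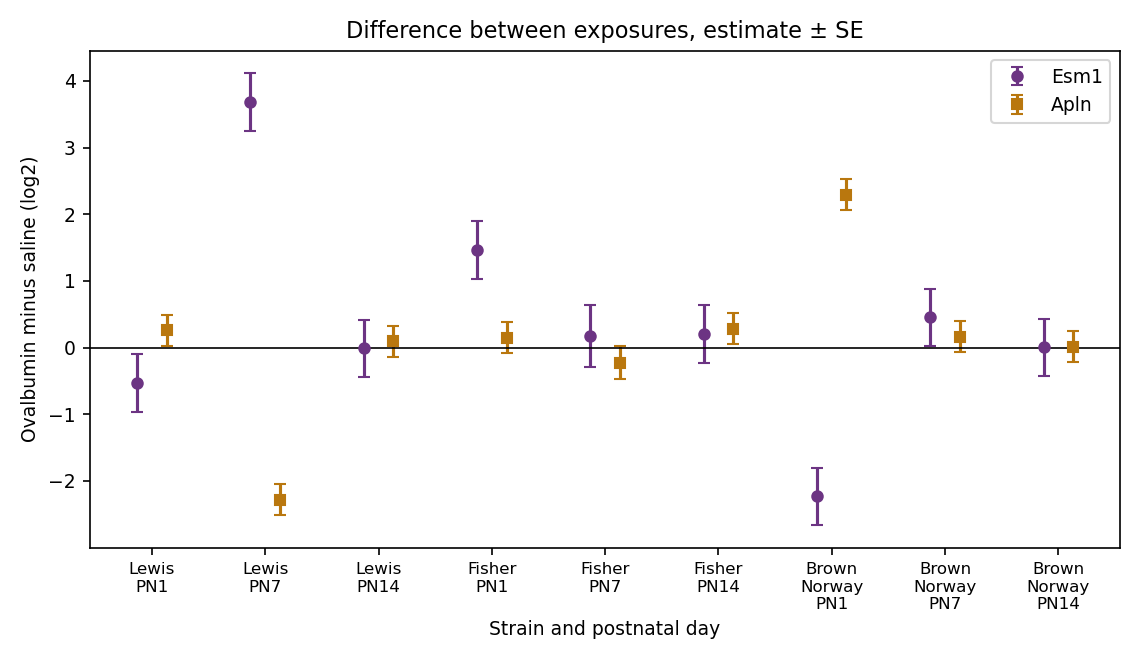
Difference between ovalbumin and saline lungs in log2 units for Esm1 (circles) and Apln (squares) in each strain and postnatal day, with bars of 1 SE. Brown Norway PN1 (-2.23 and 2.29) and Lewis PN7 (3.68 and -2.28) stand away from 0 in opposite directions for the 2 genes, and the PN14 differences lie near 0.

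With age, saline lungs had less Esm1 and more Apln at PN7 than at PN1. Over the 3 strains, Esm1 averaged 6.42 at PN7 and 8.47 at PN1, a difference of -2.06 ± 0.25 (11 and 12 arrays). Apln averaged 11.24 at PN7 and 9.79 at PN1, a difference of 1.45 ± 0.14. By strain, Esm1 differed by -4.06 ± 0.43 in Brown Norway lungs, -1.57 ± 0.43 in those of Lewis and -0.53 ± 0.46 in those of Fisher rats, and Apln by 2.41 ± 0.23, 1.71 ± 0.23 and 0.22 ± 0.25 in the same order. The Brown Norway PN7 arrays of Esm1 lie near background, and in the authors' deposited values its step was -2.92 in Brown Norway and -0.83 in Lewis lungs. The Fisher steps changed with single arrays. Leaving out 1 array gave -1.26 to -0.0355 for Esm1 and 0.0074 to 0.62 for Apln. Both steps were largest without saline array c of PN7 (-1.26 and 0.62). The Esm1 step was nearest 0 without PN1 saline array a, the array with the highest liver sum. Without the 4 doubted arrays the Fisher Apln step was 0.61, and with slide as a term it was -0.27, the opposite direction. No slide held saline arrays of both ages, so slide and age cannot be told apart here. In the authors' deposited values the mean Esm1 step was -1.35, and with slide as a term the Apln step was 0.93. Between PN7 and PN14, saline Esm1 was higher by 1.45 ± 0.25 at PN14 (7.87 against 6.42), and Apln differed by 0.13 ± 0.14.

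In ovalbumin lungs the age courses of the strains are given side by side; their difference was not tested. Lewis Esm1 was 7.15 at PN1, 9.80 at PN7 and 8.02 at PN14, so its highest level came on the day on which saline lungs had their lowest, 6.11. Lewis Apln in ovalbumin lungs was 10.05 at PN1, 9.23 at PN7 and 11.46 at PN14. Brown Norway Esm1 in ovalbumin lungs was 8.03, 6.65 and 7.67 on the same days, and Apln 11.27, 11.55 and 11.46. Fisher Esm1 was 8.94, 7.12 and 8.13, and Apln 10.75, 10.59 and 11.56.

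By step, Fisher ovalbumin Esm1 differed by -1.82 ± 0.43 at PN7 relative to PN1, and arrays of these ages overlapped. Apln of these arrays differed by -0.16 ± 0.23. At PN14 relative to PN7, Fisher Apln differed by 0.97 ± 0.23 and Esm1 by 1.01 ± 0.43. Without the Fisher PN7 arrays on slides 2 and 5 the Apln difference was 0.49 and that of Esm1 1.80. In Brown Norway ovalbumin lungs Esm1 at PN14 exceeded PN7 by 1.02 ± 0.43. Arrays of the ages did not overlap, as for 24.3% of probes. Brown Norway Apln differed by -0.09 ± 0.23 over that step.

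Between strains, averages over all days and exposures differed little for Esm1: -0.06 ± 0.18 for Brown Norway minus Lewis, -0.04 ± 0.18 for Fisher minus Lewis and -0.01 ± 0.18 for Brown Norway minus Fisher. Apln differed by 0.44 ± 0.09, 0.36 ± 0.10 and 0.08 ± 0.10 in the same order. The group means behind these averages ran in opposite directions. Esm1 averaged 10.26 in Brown Norway and 7.68 in Lewis saline lungs at PN1, and 6.65 and 9.80 in their ovalbumin lungs at PN7. Apln averaged 8.98 and 9.79 in the same saline lungs, and 11.55 and 9.23 in the same ovalbumin lungs. In ovalbumin lungs at PN1, Apln averaged 11.27 in Brown Norway and 10.05 in Lewis lungs. Among ovalbumin lungs at PN1, Fisher exceeded Lewis by 1.79 ± 0.43 for Esm1 and by 0.69 ± 0.23 for Apln. No arrays overlapped for either gene, as for 15.3% of probes. Among ovalbumin lungs at PN7, Brown Norway minus Fisher was 0.96 ± 0.23 for Apln and -0.47 ± 0.43 for Esm1. Without the Fisher PN7 arrays on slides 2 and 5 it was 0.47 for Apln and 0.32 for Esm1.

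Ordered by group mean, Esm1 was highest in Brown Norway PN1 saline (10.26), Lewis PN7 ovalbumin (9.80) and Fisher PN1 ovalbumin (8.94), and lowest in Lewis PN7 saline (6.11), Brown Norway PN7 saline (6.196) and Brown Norway PN7 ovalbumin (6.65). Apln was lowest in Brown Norway PN1 saline (8.98), Lewis PN7 ovalbumin (9.23) and Lewis PN1 saline (9.79). It lay between 11.27 and 11.56 in 10 groups, which are the 6 PN14 groups, both Brown Norway PN7 groups, Lewis PN7 saline and Brown Norway PN1 ovalbumin. In both orders every group overlapped its neighbour. Over the 18 group means, Esm1 and Apln had a Pearson r of -0.616 and a Spearman rho of -0.321. Without Brown Norway PN1 saline and Lewis PN7 ovalbumin, r over 16 means was -0.073, so the relation rests on these 2 groups. Although both are named as tip cell genes, they did not run as one group.

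**Figure D3:**
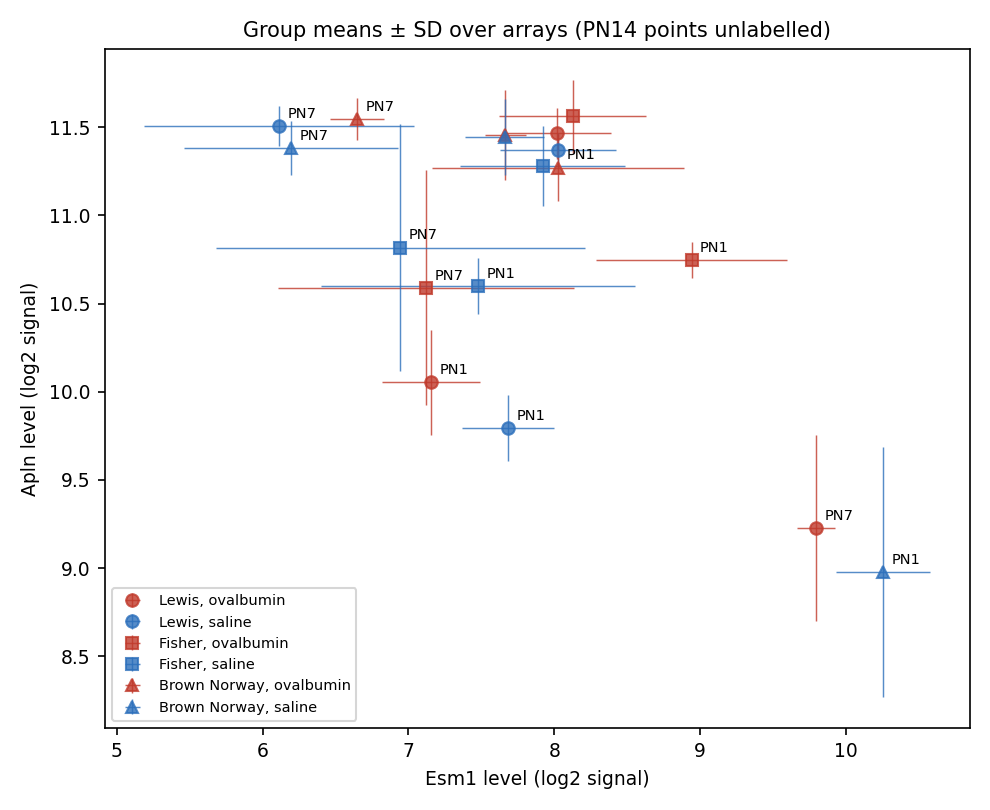
Mean Apln level against mean Esm1 level (log2 signal) in the 18 groups, with bars of 1 SD over arrays; symbols are strains and colours exposures. Brown Norway PN1 saline and Lewis PN7 ovalbumin lie alone at high Esm1 and low Apln, and r over the other 16 means is -0.073.

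Within groups, where the group means play no part, the deviations of Esm1 and Apln from their group means had a Pearson r of -0.333 over 71 arrays (two-sided permutation within groups, p = 0.0338) and a Spearman rho of -0.196 (permutation p = 0.155). No other within-group relation was tested; for the 16 genes named below as most like Esm1 or Apln, r of the deviations was computed as a description. Of the 71 arrays, 38 deviated in opposite directions for the 2 genes. Without the 2 arrays farthest from the median of Esm1 (Fisher PN1 saline a and Fisher PN7 saline c) r was -0.227 (permutation p = 0.147). Without both Fisher PN7 groups it was -0.005 (permutation p = 0.958), and with deviations taken within group and slide it was -0.020 over 66 arrays (permutation p = 0.889). With slide as a fixed term r was -0.297 (permutation p = 0.0287) and rho -0.272 (permutation p = 0.0493). In the authors' values r was -0.326 (permutation p = 0.0423). The run without Fisher PN7 was chosen after seeing the data. The settings thus differ on the part of slide, and the relation was not seen without the Fisher PN7 arrays.

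**Figure D4:**
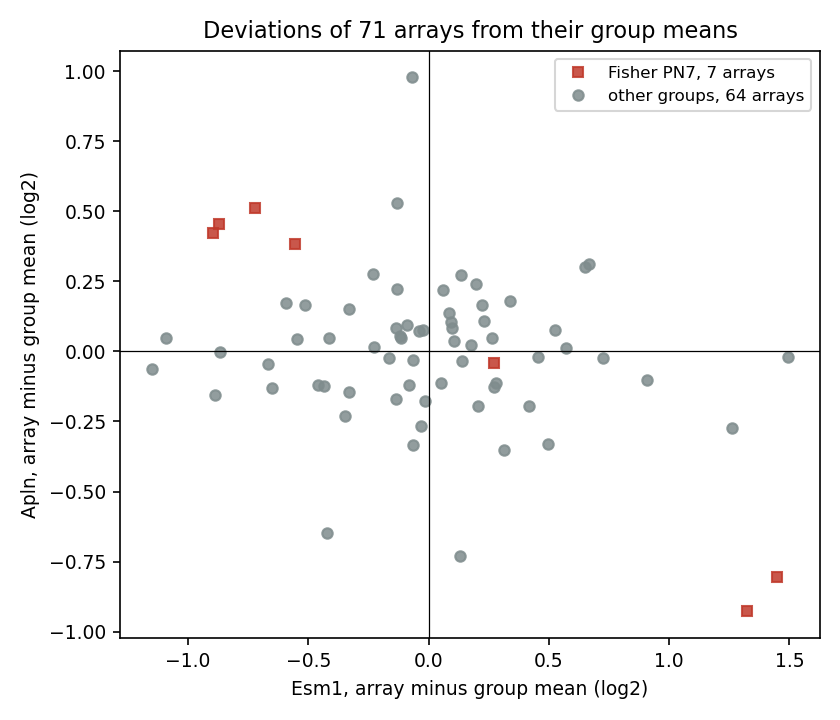
Deviation of Apln against deviation of Esm1 from their group means (log2) on 71 arrays, with the 7 Fisher PN7 arrays as red squares. The Fisher PN7 arrays run from upper left to lower right; over the other 64 arrays r is -0.005.

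The apelin receptor gene Aplnr was called in neither of the 2 comparisons. Its group means ran from 11.56 in Lewis PN7 ovalbumin to 12.50 in Fisher PN14 saline. Aplnr differed by -0.09 ± 0.17 in Brown Norway PN1 (limma, adjusted p = 0.779) and by -0.28 ± 0.17 in Lewis PN7 (limma, adjusted p = 0.209). Without Lewis PN7 saline array d and the 3 other doubted arrays, the Lewis PN7 difference was -0.48 and was called (limma, adjusted p = 0.0138). In saline lungs Aplnr rose by 0.36 ± 0.10 at PN7 relative to PN1 (limma, adjusted p = 0.00252), where 47% of all probes were called.

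The next genes are read against the whole array: 26.3% of probes were called in Brown Norway PN1 (13.7% higher, 12.6% lower) and 35.2% in Lewis PN7 (18.3% higher, 16.9% lower). All gene lists are given without Esm1 and Apln and were drawn up with earlier results of these data known. The lists share genes (among them Tek, Tie1, Nrp1, Dll4, Adm and Emcn), so their counts are not independent of each other. Whole lung cannot tell fewer cells of a type from less RNA per cell.

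Of 8 measured VEGF ligands and receptors, 1 rose and 1 fell in Brown Norway PN1, and 1 rose and 2 fell in Lewis PN7. Vegfa, the main ligand for sprouting, was called in neither (0.41 ± 0.21 in Brown Norway PN1 and -0.39 ± 0.21 in Lewis PN7; limma, adjusted p = 0.152 and 0.156). In Brown Norway PN1, the ligand Pgf fell by 1.34 on the log2 scale (-1.34 ± 0.22; detected on 3 of 4 ovalbumin arrays) and the co-receptor Nrp1 rose by 0.91 ± 0.17. In Lewis PN7, the ligand Vegfb rose by 0.86 ± 0.17, while Vegfd (-0.86 ± 0.22) and the lymphatic growth factor Vegfc (-0.58 ± 0.17) fell. Of 4 angiopoietin pathway genes, the receptor genes Tek and Tie1 fell in Brown Norway PN1 and Tek rose in Lewis PN7. The Tie1 call was lost with slide as a term (-0.31, limma, adjusted p = 0.103). It was also lost on leaving out ovalbumin array c or d, or saline array a or d. Tek, which encodes the angiopoietin receptor, moved in the same direction as Esm1 in both: it averaged 9.65 in ovalbumin and 10.28 in saline Brown Norway PN1 lungs (-0.63 ± 0.14; limma, adjusted p = 0.000441), and 10.45 in ovalbumin and 9.01 in saline Lewis PN7 lungs (1.44 ± 0.14; limma, adjusted p = 3.6e-12). Angpt2, an angiopoietin known from tip cells, was not called in either (0.25 ± 0.15 and 0.11 ± 0.15).

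The Notch pathway genes that were called went in the direction of Esm1. Of 12 measured, 3 fell and none rose in Brown Norway PN1, where 26.3% of all probes were called (12.6% lower). In Lewis PN7, where 35.2% were called (18.3% higher), 5 rose and none fell. These counts are near the shares of all probes called in either direction. The list medians were -0.19 and 0.40, against 0.00 and 0.01 over all probes. Hey1, a transcriptional target of Notch, fell by 1.14 on the log2 scale in Brown Norway PN1 (-1.14 ± 0.19; 6.97 in ovalbumin and 8.11 in saline lungs) and rose by 1.58 ± 0.19 in Lewis PN7 (8.29 in ovalbumin and 6.71 in saline lungs, where 3 of 4 arrays detected it). The receptor gene Notch1 fell in Brown Norway PN1 (-0.76 ± 0.15) and rose in Lewis PN7 (0.63 ± 0.15). Dll4, the Notch ligand of tip cells, rose in Lewis PN7 (1.08 ± 0.20; limma, adjusted p = 1.04e-05) and was not called in Brown Norway PN1 (0.13 ± 0.20; limma, adjusted p = 0.694).

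The aerocyte list was called in the direction of Apln. Of 6 genes measured beside Apln, 4 rose and none fell in Brown Norway PN1, and none rose and 4 fell in Lewis PN7, with list medians of 0.81 and -0.60. Car4, a membrane carbonic anhydrase that marks aerocytes in mouse, averaged 11.66 in ovalbumin and 10.24 in saline Brown Norway PN1 lungs (1.42 ± 0.18; limma, adjusted p = 1.02e-08). In Lewis PN7 it averaged 10.59 in ovalbumin and 11.62 in saline lungs (-1.02 ± 0.18; limma, adjusted p = 4.34e-06). Chst1, a sulfotransferase gene, moved likewise (1.34 ± 0.20 and -1.12 ± 0.20). Fibin and Tbx2 rose in Brown Norway PN1, and Igfbp7 and Emcn fell in Lewis PN7. The Tbx2 call was lost without saline array a (0.61) or saline array c (0.55). Over the 18 group means, Car4 had an r of 0.889 with Apln and Chst1 of 0.880. These means include those of the 2 comparisons. For genes of the lists, r was not computed without Brown Norway PN1 saline and Lewis PN7 ovalbumin. Of 8 general capillary markers, 2 rose and 1 fell in Brown Norway PN1 and none rose and 1 fell in Lewis PN7, where 3 fell without the 4 doubted arrays; the chemokine gene Cxcl12 was called in both, at 1.04 ± 0.17 and -1.03 ± 0.17.

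The other tip and angiogenic genes did not share one direction with either member. Of 17, 2 rose and 2 fell in Brown Norway PN1, and 5 rose and 1 fell in Lewis PN7. Igfbp3, an insulin-like growth factor binding protein, went the way of Esm1 (-1.51 ± 0.24 and 1.15 ± 0.24) and over group means had an r of 0.632 with Esm1 and -0.932 with Apln. Unc5b, a netrin receptor gene, went the way of Apln (0.61 ± 0.21 and -0.52 ± 0.21), though its Lewis PN7 call was lost in the authors' values (-0.29; limma, adjusted p = 0.0922). That call was also lost on leaving out any of several single arrays. Its Brown Norway PN1 call was lost without ovalbumin array d (0.47), saline array c (0.56) or saline array d (0.58). Cxcr4, a chemokine receptor gene, and Adm, which encodes adrenomedullin, rose in Lewis PN7 (1.42 ± 0.22 and 1.15 ± 0.25) and were not called in Brown Norway PN1 (0.16 ± 0.22 and -0.47 ± 0.25). Ramp3, which encodes a partner of the adrenomedullin receptor, fell in Brown Norway PN1 (-1.64 ± 0.32) and was not called in Lewis PN7 (-0.06 ± 0.32).

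Pan-endothelial markers were called in both directions in both comparisons. Of 17 pan-endothelial genes, 1 rose and 5 fell in Brown Norway PN1, and 3 rose and 2 fell in Lewis PN7, with medians of -0.26 and 0.13. Their summed linear signal was 69300 to 77000 in ovalbumin and 80700 to 86300 in saline Brown Norway PN1 lungs. It was 74500 to 79900 in ovalbumin and 66800 to 78300 in saline Lewis PN7 lungs. Claudin 5, a tight junction protein of endothelium, was among the called genes (Cldn5, -0.38 ± 0.09 and 0.44 ± 0.09). The part of endothelial content in the Esm1 and Apln differences was not tested.

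Lists that are not specific to vessels were also called in these comparisons. Of 9 glucocorticoid-responsive genes, 8 fell and none rose in Brown Norway PN1, and 6 rose and none fell in Lewis PN7 (medians of -1.34 and 1.17). Klf9, a transcription factor gene induced by glucocorticoids, differed by -2.13 ± 0.31 and 1.71 ± 0.31, and Fkbp5, a chaperone of the glucocorticoid receptor, by -2.13 ± 0.39 and 1.58 ± 0.39. Tsc22d3 differed by -1.34 ± 0.24 and 1.46 ± 0.24. Of 12 cell cycle genes, 6 rose and 1 fell in Brown Norway PN1 and all 12 fell in Lewis PN7. Mcm2, a subunit of the replicative helicase, differed by 1.30 ± 0.20 and -1.92 ± 0.20, and Rrm2, a ribonucleotide reductase subunit, by 1.31 ± 0.36 and -3.30 ± 0.36. The count of 6 was 3 without saline array c or without ovalbumin array b of Brown Norway PN1.

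Of 15 hypoxia response genes, 1 rose and 4 fell in Brown Norway PN1, and 6 rose and 5 fell in Lewis PN7. Bnip3, a mitophagy gene, went the way of Esm1 (-1.81 ± 0.27 and 2.00 ± 0.27), while the glycolytic gene Pgk1 fell in Lewis PN7 (-1.07 ± 0.11). The 5 lower genes of Lewis PN7 were 2 without saline array c or without ovalbumin array c. Adipose markers, whose presence in a lung sample depends on dissection, had a summed linear signal over 10 genes of 8040 to 8740 in ovalbumin and 13800 to 20900 in saline Brown Norway PN1 lungs, and of 18100 to 22000 in ovalbumin and 10700 to 13700 in saline Lewis PN7 lungs. Of these 10 genes, none rose and 1 fell in Brown Norway PN1, and 1 rose and none fell in Lewis PN7. Their list medians were 0.28 and -0.02, so the middle gene of the list did not follow the sums. The part of these gene groups in the Esm1 and Apln differences was not tested.

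**Figure D5:**
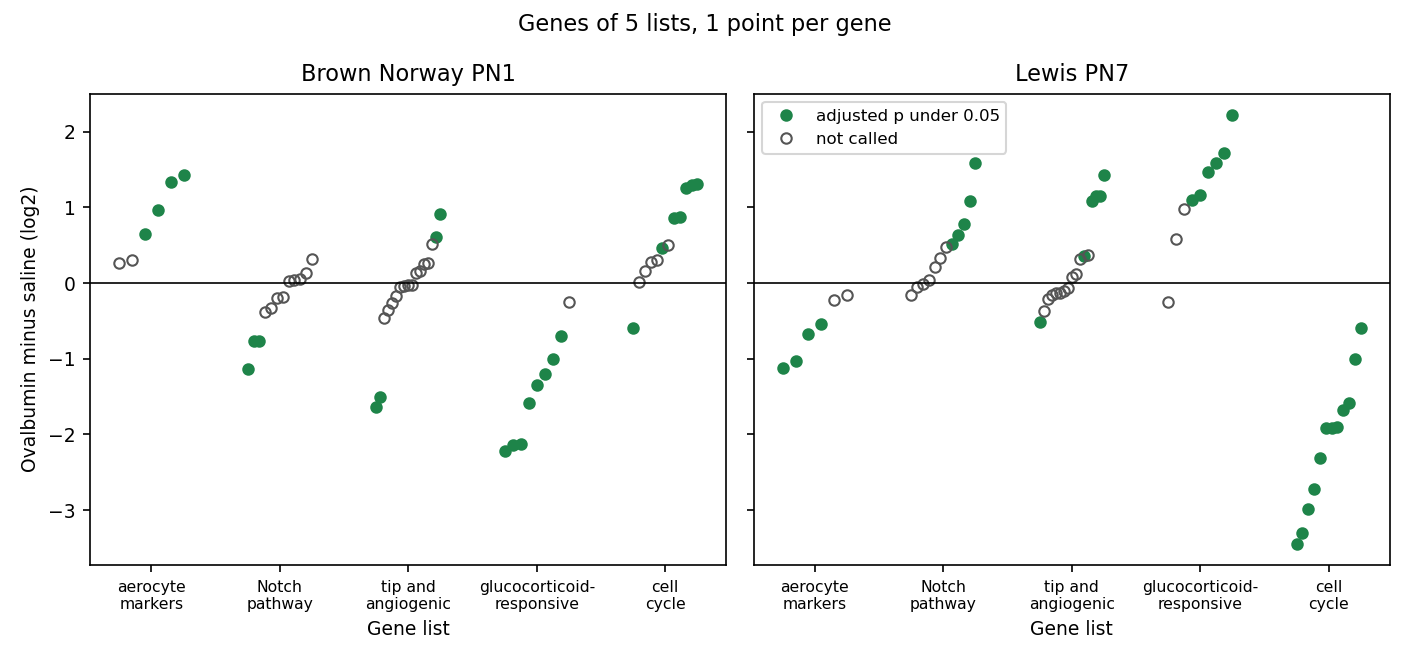
Ovalbumin minus saline difference (log2) of each gene of 5 lists without Esm1 and Apln, in Brown Norway PN1 (left) and Lewis PN7 (right); filled points have an adjusted p under 0.05. Aerocyte markers lie above 0 on the left (4 of 6 called) and below 0 on the right (4 of 6 called), while 8 of 9 glucocorticoid-responsive genes are called below 0 on the left and 6 of 9 above 0 on the right; Sgk1 of that list lies at -0.25 in both and is called in neither.

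In Fisher PN1, where Esm1 differed by 1.46 and Apln by 0.15, none of 6 aerocyte markers and none of 9 glucocorticoid-responsive genes were called, 1 of 12 Notch genes rose, and 8 of 12 cell cycle genes fell (median -1.44), where 2.75% of probes were called (1.46% higher, 1.3% lower). In the mean comparison at PN14, 0.0143% of probes were called, and no gene of any list was called by limma. There, 16 genes of the lists had an unadjusted p under 0.05 (limma). The share of all probes with such a p is not given here, so these 16 cannot be read against the whole array. Slide and exposure cannot be told apart at PN14. In saline lungs from PN1 to PN7, 4 of 6 aerocyte markers rose and none fell, all 9 glucocorticoid-responsive genes fell, and 10 of 12 cell cycle genes rose and 1 fell. The background of that step was 24.3% of probes higher and 22.7% lower. Notch genes split in it, with 2 higher, Dll4 among them (0.58 ± 0.12), and 2 lower, Notch1 among them (-0.73 ± 0.09).

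The genes whose 18 group means were most like those of Esm1, out of 9642, were Per1 (Pearson r 0.921), Tmem106b (0.877), Tob1 (0.863), Jak2 (0.861), Cblb (0.857), Larp1b (0.855), Tatdn2 (0.851) and Sgms1 (0.850). Per1, a circadian clock gene that glucocorticoids induce, differed by -1.58 in Brown Norway PN1 and by 2.22 in Lewis PN7. It also belongs to the glucocorticoid-responsive list. Those most like Apln were Srsf3 (0.981), Ndufaf7 (0.953), Serpinb9 (0.951), Gbp2 (0.938), Slc7a10 (0.927), Pola2 (0.925), Ppic (0.923) and Kazald1 (0.923). Srsf3, a splicing factor gene, differed by 1.10 and -1.10, and Slc7a10, an amino acid transporter gene, by 2.52 and -3.42. Within groups the deviations of Per1 had an r of 0.458 with those of Esm1 over 71 arrays, and those of Srsf3 an r of 0.647 with those of Apln; arrays of a group share slides, so these are descriptions. Of all genes, 6.97% had a lower r with Esm1 than Apln had. For the genes named here as most alike, r over group means was not computed without Brown Norway PN1 saline and Lewis PN7 ovalbumin.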

How the data were processed

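Whole lung RNA of 71 rat samples was hybridised to Illumina rat bead arrays, 1 array per sample. Per the file headers, the deposited raw table holds for each of 22523 probes the mean bead signal as an intensity, its standard error over beads (also an intensity), a detection p-value and the number of beads, with no background correction. The authors' deposited log2 values equal quantile normalized log2 raw signals to within 5e-05, without background correction; the submitters' processing notes name lumi.

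Raw signals were background corrected with the detection p-values, quantile normalized and put on the log2 scale by neqc (limma 3.58.1, R 4.3.3, offset 16). Probes detected (p under 0.01) on at least 3 arrays were kept, 14019 in all. The lowest and highest numbers of probes detected on an array were 10128 and 12437; the number of arrays limits the precision. A linear model with 1 mean per group was fitted over all probes, with moderated variances (eBayes with a trend) and Benjamini-Hochberg adjustment, and a threshold of 0.05. SE means the moderated standard error. The within-group correlation was tested with 100000 permutations (Python 3.11.15, numpy 2.4.6). For each gene of a list, the probe with the highest mean was used. On simulated data for Lewis PN7 (14019 probes), 87% of 100 probes changed by 1 log2 unit and 99% of 100 changed by 2 were recovered, and 3.63% of calls were false. The simulated arrays had independent noise, no slide effect and few changed probes, whereas 35.2% of probes were called in the real comparison. These rates may therefore not hold for the real arrays.

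The members, gene lists and tests were chosen with earlier results of these data known. Which comparisons chose the 2 genes is not recorded, so the planned tests of Esm1 and Apln between groups are printed without p-values. Named genes were both members, the 8 genes most like each over the group means, the apelin, VEGF and angiopoietin genes, and up to 4 genes of each other list with the lowest p-values. Replicate letters paired the samples (every pair above 0.1) in Fisher PN7 alone, with r of 0.351, 0.433 and 0.340. Alternatives were the authors' values, other detection filters, slide as a fixed term, as a random block and within slides, the groups compared alone, array weights, a replicate block, and leaving out arrays. The 4 arrays in doubt came from earlier results of these data; the list counts under alternatives and the Fisher PN7 arrays left out by slide were chosen after seeing the data.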

Additional observations from a re-analysis of the deposited data

Results flagged for a closer look

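In 34 groups of 4 arrays (17 per gene), 3 arrays lay apart from the others of their group by Dixon's test; chance marks about 1 in 20 groups. Esm1 was 7.65 on Lewis PN1 ovalbumin array c, above the next highest at 7.02, and this was the array of its group on slide 1. Esm1 was 5.1 on Brown Norway PN7 saline array d, below the next lowest at 6.42, where the signal was not detected; all 4 arrays lay on slide 4. Apln was 11.37 on Brown Norway PN7 ovalbumin array d, below the next lowest at 11.59, with 2 other arrays on the same slide.

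The exposure difference had opposite directions in 2 strains and ages, with no overlap of arrays in either. Groups did not overlap for 31.5% of all probes in Brown Norway PN1 and 29.8% in Lewis PN7. The share of probes that switched direction in this way was not counted. For Esm1 the difference in Lewis PN7 (3.68) exceeded that in Brown Norway PN1 (-2.23) by 5.92 on the log2 scale. For Apln the difference in Brown Norway PN1 (2.29) exceeded that in Lewis PN7 (-2.28) by 4.57. Neither contrast of differences was tested, because the genes were chosen with results of these arrays known.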

How the results depend on the processing

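The Brown Norway PN1 and Lewis PN7 exposure differences of both genes kept their directions under every alternative run. Leaving out 1 array gave Brown Norway PN1 differences of -2.65 to -2.03 for Esm1 and 2.08 to 2.62 for Apln, and Lewis PN7 differences of 3.30 to 3.99 and -2.46 to -2.04. With the authors' values the saline Esm1 steps were -1.35 (PN7 minus PN1) and 0.80 (PN14 minus PN7). With slide as a fixed term, PN14 minus PN7 was 1.03 for Esm1 and 1.505 for Apln in ovalbumin lungs and 0.41 and 0.76 in saline lungs, and the saline PN7 minus PN1 step of Apln was 0.93; this term also gave 1.47 for Esm1 exposure in Lewis PN14, -0.19 for Esm1 PN14 minus PN7 in Fisher saline and 0.15 for Apln PN14 minus PN7 in Brown Norway ovalbumin lungs, all reversed. It raised the probes called for exposure at PN14 to 1572, against 2, and lowered those of the saline PN7 minus PN1 step to 3662, against 6585 (45.8% and 51.7% higher). The PN14 ovalbumin arrays lay on slide 6, except Fisher array d on slide 2. Slide 6 held only PN14 ovalbumin arrays, so this term's values for those lungs and its 1572 calls rest on that 1 array. Within slide 2, the ovalbumin PN7 minus PN1 step of Esm1 was 0.72 and the mean PN7 exposure differences were 4.53 and -2.64; within slide 1 the mean PN1 exposure difference of Apln was 0.0437.

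Strain averages moved most within slides, which hold different groups. Brown Norway minus Lewis Esm1 was 2.78, -0.83 and 1.54 on slides 1, 2 and 3, and Apln was 1.81 on slide 2 and reversed to -0.87, -0.0793, -0.0027 and -0.0087 on slides 1, 4, 5 and 6. Fisher minus Lewis Esm1 was 2.27, 1.25 and -1.9975 on slides 2, 3 and 4, and Apln was 1.01 on slide 1 and reversed to -0.57, -0.17 and -0.0044 on slides 2, 5 and 6. Brown Norway minus Fisher was 3.33 for Esm1 on slide 1, and -1.87, 0.53 and -0.43 for Apln on slides 1, 2 and 3. The within-group r of the 2 genes was 0.340, -0.359, 0.189, -0.252, -0.048 and -0.120 within slides 1 to 6, -0.227 without the 2 farthest arrays, -0.020 within group and slide, -0.005 without Fisher PN7, and -0.385 to -0.212 leaving out 1 array. The cause was not tested.

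Small differences changed sign. Esm1 exposure in Lewis PN14 was 0.10 with slide as a random block, 0.11 with array weights and -0.15 to 0.17 leaving out 1 array, and Apln exposure in Brown Norway PN14 was -0.0135 with the random block and -0.0796 to 0.12. The ranges were -0.0054 to 0.14 for mean Esm1 exposure at PN14, -0.0125 to 0.43 in Fisher and -0.11 to 0.0823 in Brown Norway, and -0.18 to 0.0208 for Apln PN14 minus PN7 in Brown Norway ovalbumin lungs. Apln PN7 minus PN1 in Fisher ovalbumin lungs was 0.20 with array weights, 0.33 without the Fisher PN7 arrays on slides 2 and 5, and -0.33 to 0.15 leaving out 1 array. Esm1 in Brown Norway minus Fisher PN7 ovalbumin lungs was 0.0766 with array weights and 0.32 without those arrays. Without the 4 doubted arrays, VEGF genes higher in Brown Norway PN1 were 2, with Vegfd (limma, adjusted p = 0.00927), and in Lewis PN7 the lower tip genes were 2 and the lower glucocorticoid-responsive genes 1, Sgk1. With slide as a fixed term no pan-endothelial gene was called higher in Brown Norway PN1. The replicate block was run for Esm1 and Apln only, and the list counts were not recomputed with it. The saline PN7 minus PN1 step of Esm1 with this block was -2.06. Esm1 in PN7 saline lungs lies near background, which limits its fold changes.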
